A study of Mus musculus with 4 samples.

Results

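The 10 integrin chains described here, Itgav, Itga5, Itga6, Itgb1, Itgb3, Itga4, Itgal, Itgam, Itgb2 and Itgb7, were taken by symbol from a deposited table of 54532 mouse genes, and each symbol matched 1 row. They are 10 of 26 integrin alpha and beta chains looked up in that table. The table holds 4 RNA sequencing libraries, 2 labelled WT and 2 labelled Piezo1KO, which the labels describe as CD4+ T cells that had infiltrated tumours of B16, a mouse melanoma cell line that makes pigment. The series asks how Piezo1, a cation channel opened by mechanical force, acts when Th9 cells, which are helper T cells secreting interleukin 9, develop. The labels give no strain, age or animal, and neither the Piezo1 allele nor any driver of its deletion. All 4 libraries share the tumour setting. Each library carries the sample number of its title (WT 1, WT 2, Piezo1KO 1, Piezo1KO 2), and 2 values given for a group follow that order. Whether the libraries within a group are separate animals is not in the labels, so p-values reflect nothing beyond the spread among these 4 libraries, and that spread may be technical.

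Integrins are receptors of the cell surface built from an alpha and a beta chain, and they tie the extracellular matrix or another cell to the actin skeleton. The Itgb1 and Itgav products are the shared partners of most matrix-binding pairs: alpha 5 beta 1 binds fibronectin, alpha 6 beta 1 binds laminin, and alpha v beta 3 binds vitronectin and osteopontin and is well known in melanoma. The Itgb2 product (CD18) is made by leukocytes, where it pairs with the products of Itgal (LFA-1, on most leukocytes) and Itgam (Mac-1, on myeloid and natural killer cells) to bind ICAM proteins and complement. Itga4 belongs to both worlds, since alpha 4 beta 1 occurs on leukocytes and on melanoma cells, while alpha 4 beta 7 brings lymphocytes to the gut.

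The upstream sequences of 3 chains are shown because they represent the patterns described in the results: Itgam and Itgb7 had higher values in both Piezo1KO libraries than in either WT library, and Itgb1 was the most abundant chain and nearly level. Of the 10 chains, 6 have an entry in the RefSeq promoter table used here (Itga4, Itgav, Itgam, Itgb1, Itgb7 and Itga5). Each sequence is the 250 bases before the RefSeq start in GRCm38.p6, 5′ to 3′ on the gene's strand. The windows lie at chr7:128062390-128062639 on the plus strand for Itgam, chr15:102231936-102232185 on the minus strand for Itgb7, and chr8:128685404-128685653 on the plus strand for Itgb1. Capitals mark GAGGAA, a core of sites bound by the myeloid factor PU.1, on either strand.
Itgam: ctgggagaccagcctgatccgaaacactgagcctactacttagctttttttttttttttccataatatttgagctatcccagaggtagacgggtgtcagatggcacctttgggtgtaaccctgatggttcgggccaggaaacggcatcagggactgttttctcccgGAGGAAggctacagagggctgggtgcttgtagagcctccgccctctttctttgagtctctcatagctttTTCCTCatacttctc
Itgb7: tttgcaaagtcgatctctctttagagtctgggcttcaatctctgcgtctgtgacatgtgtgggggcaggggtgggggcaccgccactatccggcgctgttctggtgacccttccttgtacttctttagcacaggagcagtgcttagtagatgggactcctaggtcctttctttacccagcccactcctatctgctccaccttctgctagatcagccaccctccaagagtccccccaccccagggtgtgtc
Itgb1: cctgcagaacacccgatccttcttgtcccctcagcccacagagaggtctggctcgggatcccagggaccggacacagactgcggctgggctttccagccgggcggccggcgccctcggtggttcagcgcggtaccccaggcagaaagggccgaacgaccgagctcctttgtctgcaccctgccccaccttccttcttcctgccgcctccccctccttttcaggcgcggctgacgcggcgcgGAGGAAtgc
The core occurred in 2 places for Itgam (84 to 79 and 15 to 10 bases before the start), in 1 for Itgb1 (9 to 4 bases before it) and in 0 for Itgb7. It was also found in 2 places for Itgav and in 1 for Itga5, and in 0 for Itga4. Of 32851 windows of this length, 23.3% held it at least once on either strand and 3.54% at least 2 times. Of the leukocyte chains only Itgam and Itgb7 had a window, too few to say whether the core goes with higher values. The Itgb1 window held 21 CpG pairs, Itgav 18, Itga5 11, Itgam and Itga4 6 each, and Itgb7 5. The median over all windows was 6. These matches describe letters in a window and not bound sites.

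Between 13789266 and 15892797 reads per library were assigned to genes. Mitochondrial genes took 2.99% to 3.86% of them in WT and 20.1% and 48.3% in the Piezo1KO libraries. Piezo1 itself had an FPKM (fragments per length of gene and per size of library) of 27.8 and 27.6 in WT but of 18.7 and 7.64 in Piezo1KO, so the targeted gene was still read in the libraries labelled Piezo1KO. The labelled cell type was near the floor: 10 T cell markers summed to 2.38 and 1.86 FPKM in WT and to 14.6 and 9.90 in Piezo1KO, against 6351 to 7078 for 8 melanocyte markers. Cd3g, Trac, Trbc2 and Cd2 had 0 reads in WT 1, Cd5 in WT 2, and Cd3e and Cd5 in Piezo1KO 2. In such mixed samples fewer cells of a type and less RNA per cell cannot be told apart.

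The melanoma chains dominated every library. Itgb1 (ENSMUSG00000025809, GRCm38 chromosome 8, 128685654 to 128733200), the common beta chain of matrix receptors, made up 57.8% to 65.2% of the summed FPKM of the 10 chains. In WT, Itgb1 was followed by Itga5 and Itgav, whose ranges overlapped, then by Itgb3, Itga4, Itga6 and Itgb2 in that order without overlap between neighbours. Itgb7 and Itgal followed with overlapping ranges, and Itgam came last. In Piezo1KO the order began with Itgb1 and Itga5. The range of Itgb2 there overlapped those of Itgav and Itgb3, and the range of Itgb7 overlapped those of Itga6, Itga4 and Itgam and reached the lower Itgb2 value.

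**Figure D1:**
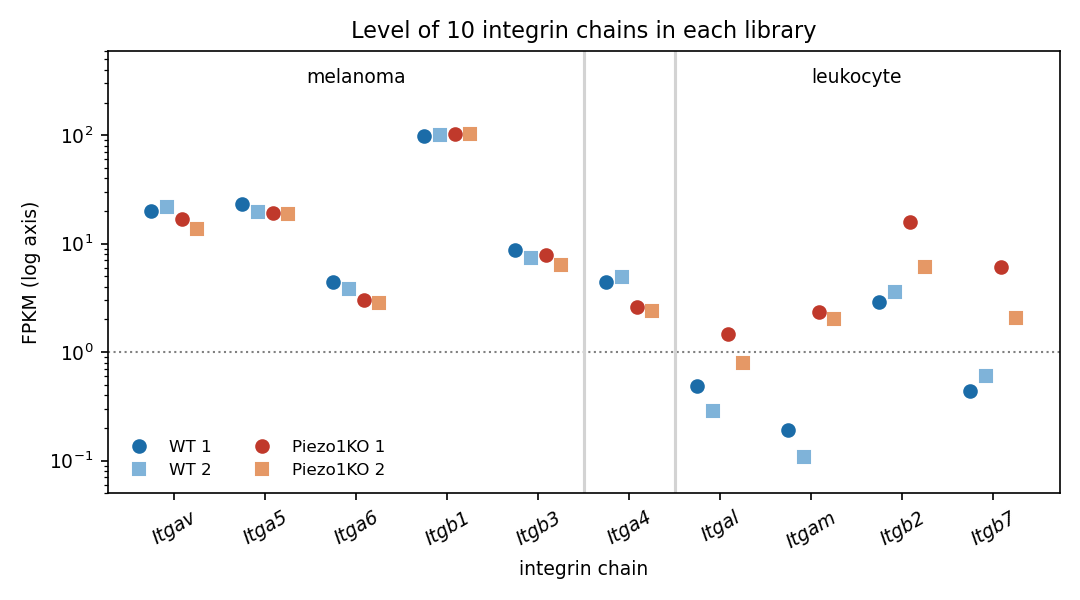
FPKM of the 10 integrin chains (log axis) in each of the 4 libraries, 1 point per library, with melanoma chains on the left, Itga4 between and leukocyte chains on the right. The dotted line is the filter of 1 FPKM, which applies to the mean over libraries. Itgb1 lies between 98.9 and 103 in all 4 libraries, and all 4 leukocyte chains are higher in both Piezo1KO libraries than in either WT library. The same held for 33.9% of all tested genes. Itgam and Itgb7 passed the filter through the Piezo1KO libraries, and Itgal was below it.

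The question put to the chains was whether each differed between the libraries labelled Piezo1KO and WT. Of the 10 chains 9 passed the filter of a mean of at least 1 FPKM and were tested, and Itgal did not. None of the 9 passed the limma test at an adjusted p of 0.05 (0 called), where 1.10% of the 11085 genes tested passed, 0.731% higher and 0.370% lower. At an unadjusted p under 0.05 there were 6 of the 9, where 28.6% of all tested genes were under it. Itgam was the 1 chain that passed in voom on recovered reads (with 0.740% of genes), after quantile normalisation (1.73%) and without intensity trend (1.15%). Leaving out a Piezo1KO library leaves 1 in that group, which is then assumed to vary like the WT pair, so the difference between the Piezo1KO libraries drops out of the error. In that fit 5 chains passed without Piezo1KO 1 (Itgav, Itga4, Itgam, Itgb2 and Itgb7), but so did 52.9% of all genes. Without Piezo1KO 2 there were 4 (Itga4, Itgam, Itgb2 and Itgb7), with 14.2% of all genes, and without WT 1 or WT 2 there was no chain and no gene. Scaled to all assigned reads 4 chains passed (Itgav and Itga4 lower, Itgam and Itgb7 higher), with 15.4% of all genes and the median of all genes shifted from -0.0059 to -0.67. That scaling called 277 genes higher and 1430 lower, against 81 and 41 with FPKM as deposited, and scaling to reads outside mitochondrial genes called 77 and 60 with a median of -0.20. Counting all 10 chains, the groups did not overlap for 5 higher and 4 lower, and overlapped for 1. The same held for 33.9% of tested genes higher and 35.6% lower. Of the 10, 3 had a WT mean under 1 FPKM (Itgal, Itgam and Itgb7), and Itgam and Itgb7 passed the filter through the Piezo1KO libraries, so they had to be higher there.

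Itgb1 had 98.9 and 99.8 FPKM in the WT libraries and 102 and 103 in the Piezo1KO libraries, from 3158 to 8289 reads. The 4 values lie within a few percent of each other and both Piezo1KO values are marginally above both WT values. The log2 difference, Piezo1KO minus WT on the log2(FPKM + 1) scale used throughout, was 0.050 with a standard error of 0.16 and a 95% interval of -0.36 to 0.46 (limma adjusted p = 0.836). Its sign turned with the scaling, to -0.17 with reads outside mitochondrial genes, -0.54 after quantile normalisation and -0.75 with all assigned reads.

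Itgav (ENSMUSG00000027087, chromosome 2, 83724397 to 83806916), the alpha v chain, had 20.1 and 21.5 FPKM in the WT libraries and 16.7 and 13.5 in the Piezo1KO libraries. Both Piezo1KO values were below both WT values, at 80.3% and 65.0% of the WT mean. The log2 difference was -0.44 with a standard error of 0.16 (limma adjusted p = 0.164). Itgb3 (chromosome 11, 104608000 to 104670476), its partner in the vitronectin receptor, had 8.76 and 7.34 in WT and 7.85 and 6.42 in Piezo1KO. The Itgb3 groups overlapped, with a log2 difference of -0.15 and a 95% interval of -0.59 to 0.28 (limma adjusted p = 0.530). Itgb3 also serves platelets, whose marker Pf4 had 7.95 and 4.09 in WT and 18.0 and 36.8 in Piezo1KO. Pf4 is 1 of 6 platelet markers, of which 3 were higher without overlap, against 33.9% of all tested genes. Among the others, Gp1bb and Treml1 had 0 reads in every library. The part of platelets in the Itgb3 values was not tested. The platelet alpha chain Itga2b had 0.0837 and 0.216 FPKM in WT and 0.249 and 0.269 in Piezo1KO, from 9 to 24 reads. Both Piezo1KO values were above both WT values, at a level near the floor.

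Itga5 (ENSMUSG00000000555, chromosome 15, 103344286 to 103366763), the fibronectin-binding chain, had 23.1 and 19.6 FPKM in WT and 19.0 and 18.9 in Piezo1KO. Both Piezo1KO values were just under the lower WT value, and the log2 difference was -0.16 with a 95% interval of -0.54 to 0.22 (limma adjusted p = 0.465). Itga6 (ENSMUSG00000027111, chromosome 2, 71745616 to 71858416), the laminin-binding chain, had 4.39 and 3.84 in WT and 3.02 and 2.85 in Piezo1KO. Its groups did not overlap, and its log2 difference was -0.38 with a standard error of 0.14 (limma adjusted p = 0.171). The median over the 5 melanoma chains was -0.16, against -0.0059 over all genes tested. Summed over these 5, the libraries held 155 and 152 FPKM in the WT libraries and 149 and 145 in the Piezo1KO libraries.

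Itga4 (ENSMUSG00000027009, chromosome 2, 79255426 to 79333123) gave the lowest log2 difference of the 9 tested chains. It had 4.44 and 4.94 FPKM in the WT libraries, from 1223 and 1404 reads, and 2.59 and 2.39 in the Piezo1KO libraries, from 534 and 250 reads. The 2 groups were tight and apart, with Piezo1KO at 55.3% and 50.9% of the WT mean. The WT mean was 4.69 ± 0.353 and the Piezo1KO mean 2.49 ± 0.144 (SD, n = 2 each). The log2 difference was -0.70 with a standard error of 0.14 (limma adjusted p = 0.116). Cerkl, which overlaps Itga4 on the other strand, had 11 to 28 reads, and the labels give no strand setting.

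Gene length moved with these values. The melanoma chains and Itga4 run from 4081 to 13978 bases, and over the tested genes the median log2 difference was 0.50 in the shortest of 4 equal classes of length (up to 2273 bases) and -0.30 in the longest (from 6339 bases), which holds Itgav, Itga6 and Itga4. With the trend on length removed, the log2 differences were -0.032 for Itgav, -0.014 for Itga6 and -0.22 for Itga4 (limma adjusted p of 0.873, 0.957 and 0.368), and Itgb3 turned to 0.072. The leukocyte chains had 1.63 for Itgam, 1.29 for Itgb2 and 1.497 for Itgb7 under the same setting.

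**Figure D2:**
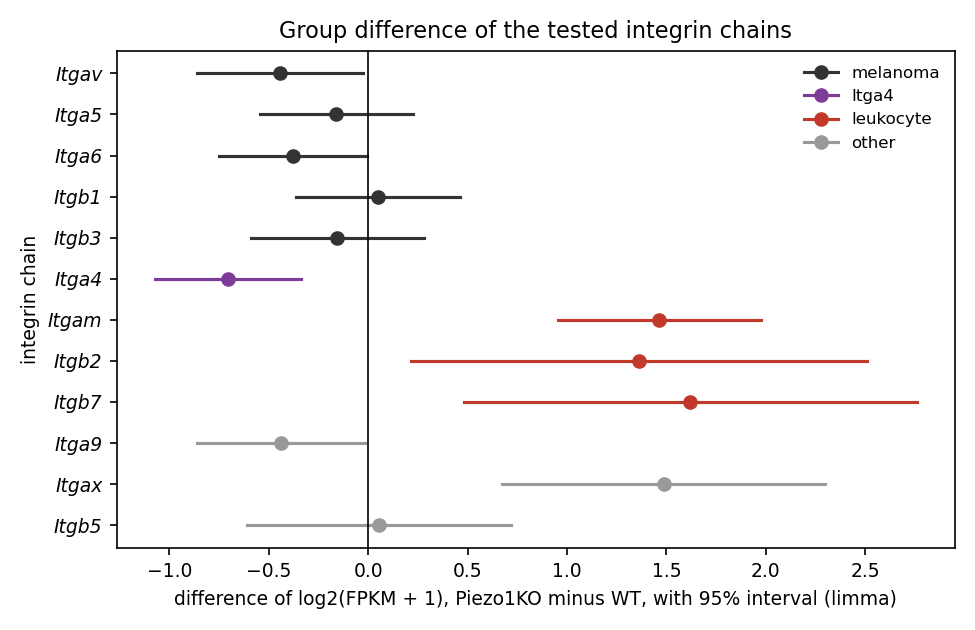
Difference of log2(FPKM + 1), Piezo1KO minus WT, for the 9 tested members and the 3 other tested integrin chains, with the 95% interval of limma (2 libraries a group). Itgam, Itgb2 and Itgb7 lie above 1, Itgb1 near 0 and Itga4 at -0.70, and no interval is adjusted for the number of genes.

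The leukocyte beta chain and its partners were higher in both Piezo1KO libraries. Itgb2 (ENSMUSG00000000290, chromosome 10, 77530252 to 77565708) had 2.92 and 3.57 FPKM in the WT libraries, from 176 and 222 reads. It had 15.8 and 6.08 in the Piezo1KO libraries, from 709 and 139 reads. Piezo1KO 1 stood at 4.85 times the WT mean and Piezo1KO 2 at 1.87 times. The WT mean was 3.25 ± 0.460 and the Piezo1KO mean 10.9 ± 6.84 (SD, n = 2 each). The log2 difference was 1.36 with a standard error of 0.43 (limma adjusted p = 0.150). The Piezo1KO libraries differed 2.59-fold from each other, and the log2 difference was 1.98 without Piezo1KO 2 and 0.74 without Piezo1KO 1. The passes of Itgb2 in those fits rest on the spread of the WT pair alone and leave out this gap.

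Itgam (ENSMUSG00000030786, chromosome 7, 128062640 to 128118491), the alpha chain of Mac-1, had 0.192 and 0.108 FPKM in the WT libraries, from 19 and 11 reads. It had 2.33 and 2.02 in the Piezo1KO libraries, from 173 and 76 reads. Both Piezo1KO values were more than 10 times either WT value, and the ratio of the means was 14.5. The log2 difference was 1.47 with a standard error of 0.19 (limma adjusted p = 0.0630), which understates the change of a gene this low. It was 3.21 with a pseudocount of 0.1 and 3.90 in voom (limma adjusted p of 0.0804 and 0.0377).

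Itgal (ENSMUSG00000030830, chromosome 7, 127296260 to 127335138), the alpha chain of LFA-1, was below the filter. It had 0.486 and 0.284 FPKM in WT, from 63 and 38 reads, and 1.48 and 0.792 in Piezo1KO, from 143 and 39 reads. The groups did not overlap and the ratio of the means was 2.94, against 14.5 for Itgam. Without a filter the log2 difference was 0.61 with a standard error of 0.23 (limma adjusted p = 0.299). The ratio of Itgam to Itgal was accordingly 0.394 and 0.378 in the WT libraries and 1.58 and 2.55 in the Piezo1KO libraries.

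Itgb7 (ENSMUSG00000001281, chromosome 15, 102215995 to 102231944), the beta chain of the gut-homing receptor, had 0.439 and 0.603 FPKM in the WT libraries, from 24 and 34 reads. It had 6.10 and 2.07 in the Piezo1KO libraries, from 249 and 43 reads. The higher value was again that of Piezo1KO 1, 2.94 times that of Piezo1KO 2. The log2 difference was 1.62 with a standard error of 0.43 (limma adjusted p = 0.135). It was 1.02 without Piezo1KO 1 and 2.22 without Piezo1KO 2, where the error again comes from the WT pair. Itga4, its alpha partner, had lower values in Piezo1KO, and the ratio of Itga4 to Itgb7 was 10.1 and 8.18 in WT and 0.425 and 1.15 in Piezo1KO.

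A ratio of chains within a library does not depend on how that library was scaled. Itgb2 stood at 2.96% and 3.58% of Itgb1 in the WT libraries and at 15.4% and 5.89% in the Piezo1KO libraries. The log2 ratio differed by 1.55 between groups, with both Piezo1KO values above both WT values (exact permutation test, two-sided, p = 0.333, the smallest that 2 libraries against 2 allow). Without Piezo1KO 1 the difference was 0.85 and without Piezo1KO 2 it was 2.24. The summed FPKM of Itgal, Itgam, Itgb2 and Itgb7 came to 2.60% and 3.003% of that of the 5 melanoma chains in the WT libraries, and to 17.2% and 7.56% in the Piezo1KO libraries. The melanoma chains thus remained the bulk of integrin transcripts in all 4 libraries.

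Most lists of leukocyte markers were higher in the Piezo1KO libraries, as the leukocyte chains were. All 6 pan-leukocyte markers (Ptprc, Coro1a, Laptm5, Cd53, Rac2 and Lcp1) were higher in both Piezo1KO libraries than in either WT library, and they summed to 15.96 and 13.4 FPKM in WT and to 98.8 and 54.5 in Piezo1KO. So were 8 of 9 macrophage and monocyte markers (whose summed FPKM averaged 5.42 times the WT level), 5 of 5 neutrophil markers (0.713 and 1.25 against 142 and 47.8) and 7 of 10 T cell markers. The 4 natural killer cell markers summed to 0.0282 and 0.0651 FPKM in WT and to 3.55 and 2.99 in Piezo1KO, with 3 of the 4 higher without overlap and Ncr1 at 0 reads in 3 libraries. Of 4 dendritic cell markers 3 were higher (0.887 and 1.57 against 3.998 and 1.91). B cell markers differed from the rest, with 1 of 4 higher and sums of 1.29 and 1.06 in WT and 3.02 and 1.05 in Piezo1KO. Outside the leukocytes, 5 of 5 erythroid markers were higher, at 16.2 and 26.8 times the WT mean in Piezo1KO 1 and Piezo1KO 2. So were 3 of 6 platelet markers and 1 of 6 markers of fibroblasts and endothelium. Among all tested genes 33.9% were higher without overlap, a share that 1 of 4, 1 of 6 and 3 of 6 do not clearly exceed. The part of these cell types in the integrin values was not tested. Relative to the summed pan-leukocyte markers, Itgb2 was 18.3% and 26.7% in the WT libraries and 15.9% and 11.2% in the Piezo1KO libraries, lower in both Piezo1KO libraries. Itgb7 was 2.75% and 4.51% in WT and 6.17% and 3.80% in Piezo1KO, with overlapping groups. These chains do not stand for all leukocyte chains. The Piezo1KO mean of the pan-leukocyte sum was 5.23 times the WT mean. For single chains that ratio of means was 14.5 for Itgam and 7.83 for Itgb7, but 3.36 for Itgb2 and 2.94 for Itgal. Set against Ptprc alone, Itgb2 was 12.3 and 28.3 times Ptprc in WT and 11.1 and 15.2 times in Piezo1KO, where the groups overlapped. Relative to the summed melanocyte markers, Itgb1 was 1.557% and 1.560% in WT and 1.448% and 1.473% in Piezo1KO, slightly lower in both Piezo1KO libraries.

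**Figure D3:**
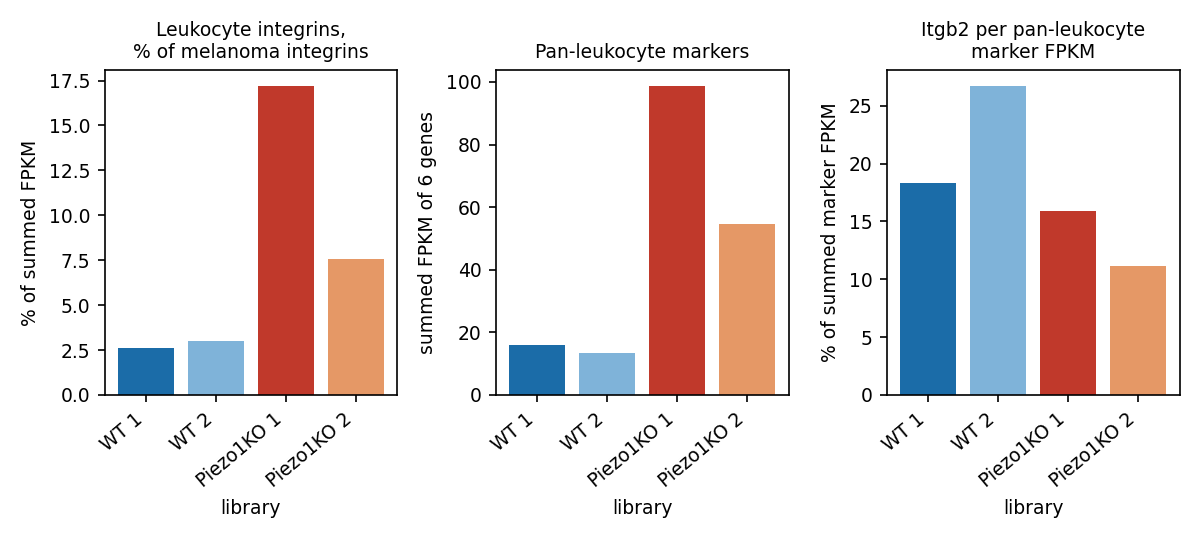
Bars for each of the 4 libraries: summed FPKM of the 4 leukocyte integrin chains as a percent of the 5 melanoma chains (left), summed FPKM of 6 pan-leukocyte markers (middle), and Itgb2 as a percent of that marker sum (right). The first 2 panels are higher in both Piezo1KO libraries, at 17.2% and 7.56% and at 98.8 and 54.5 FPKM, while the third is lower there, at 15.9% and 11.2%.

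Of 16 other integrin chains 3 were tested and 0 passed in limma. Itgax, the alpha X partner of Itgb2 on dendritic cells and macrophages, resembled Itgam, with 0.465 and 0.338 FPKM in WT and 4.12 and 2.00 in Piezo1KO and a log2 difference of 1.49 (limma adjusted p = 0.118). It too passed the filter through the Piezo1KO libraries. Itga9, a beta 1 partner that binds tenascin and osteopontin, had 13.3 and 12.1 in WT and 10.2 and 8.10 in Piezo1KO, with a log2 difference of -0.44 (limma adjusted p = 0.167). Itgb5, another alpha v partner, had 8.96 and 5.26 in WT and 7.16 and 7.25 in Piezo1KO, with a log2 difference of 0.055 (limma adjusted p = 0.889) that was -0.28 without WT 2. The other 13 did not exceed 0.984 FPKM in any library, among them Itgae, the other partner of Itgb7, with 4 to 20 reads. Itgb6 had 0 reads in all 4.

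Adaptors that switch integrins on or join them to actin were tested for 24 of 31 genes, and 0 passed in limma (12 above 0 and 12 below, median 0.058). Of the 24, 6 had an unadjusted p under 0.05, a share below the 28.6% of all genes. Fermt3, the kindlin of blood cells that activates beta 2 chains, had 1.65 and 1.35 FPKM in WT and 6.63 and 4.02 in Piezo1KO, with a log2 difference of 1.31 (limma adjusted p = 0.106). The tetraspanins Cd9 and Cd151, which sit beside beta 1 integrins, had 0.50 and 0.48, and Cd47, a partner of alpha v beta 3, had 0.48 (limma adjusted p of 0.144, 0.152 and 0.149). Scaling to all assigned reads turned Cd9, Cd151 and Cd47 to -0.26, -0.32 and -0.20. The most abundant of the list were Cd81, another tetraspanin, and Flna, which links integrin tails to actin, with means of 75.2 and 68.7 FPKM and log2 differences of 0.14 and -0.14 (limma adjusted p of 0.552 and 0.656).

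Among ligands, 13 of 28 were tested and 0 passed in limma (9 above 0 and 4 below, median 0.34). Of the 13, 6 had an unadjusted p under 0.05, against 28.6% of all genes. C3, which is among these 6, and Col1a2 had WT means of 0.117 and 0.615 FPKM. Both passed the filter through the Piezo1KO libraries, so they had to be higher there and add nothing to these counts. Spp1, osteopontin, a ligand of alpha v, alpha 4 and alpha 9 integrins, had 18.9 and 11.2 FPKM in WT and 95.3 and 69.4 in Piezo1KO. Its log2 difference was 2.40 with a standard error of 0.31 (limma adjusted p = 0.0594), and 2.49 in voom, where it passed (adjusted p = 0.0377). Thbs1, thrombospondin, had 5.65 and 3.71 in WT and 28.4 and 14.9 in Piezo1KO (log2 difference 1.95, limma adjusted p = 0.101). The laminin chains Lama5 and Lamc1, ligands of alpha 6, had log2 differences of -0.80 and -0.65 (limma adjusted p of 0.0955 and 0.148). Spp1 and Thbs1 are also made by macrophages, most of whose markers were higher in Piezo1KO too. The part of macrophages in the Spp1 and Thbs1 values was not tested.

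Over the 4 libraries, the genes whose centred log2 profile lay nearest to that of Itgb2, of 9863 compared, were Ncf4, Ier5, Irf5, Jchain and H2-Q6, at distances of 0.17 to 0.18 log2 units. H2-Q6 has close paralogs, so its reads may be split. Ncf4, for example, had 0.402 and 0.389 FPKM in WT and 4.63 and 1.32 in Piezo1KO. Nearest to Itgb1 were Akt1s1, Nmd3, Mak16, Osbpl8 and Atf2, at 0.012 to 0.025, all nearly level across libraries. With 4 points, such likeness only describes these libraries.

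**Figure D4:**
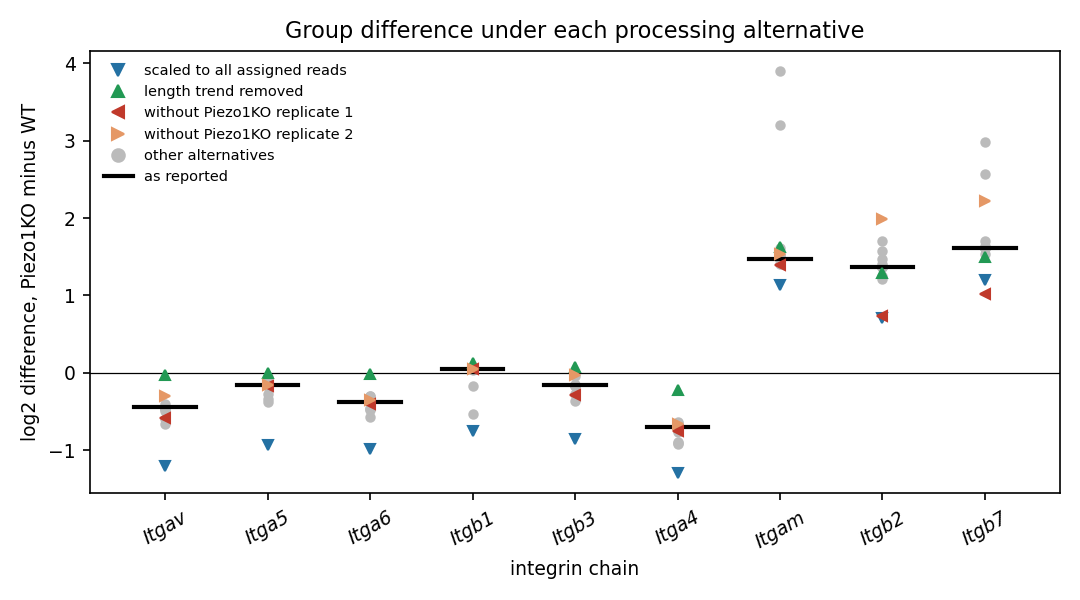
Log2 difference, Piezo1KO minus WT, of the 9 tested chains as reported (black bar) and under each processing alternative (symbols). Itgam, Itgb2 and Itgb7 stay above 0 under each alternative that tested them, Itgav, Itga5, Itga6 and Itga4 stay below 0, and Itgb1 and Itgb3 lie on both sides. Itgam and Itgb7 passed the filter through the Piezo1KO libraries, so their constant sign carries no weight.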

How the data were processed

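The deposited table gives FPKM per gene. Per the submitters' processing notes, the authors used fastp 0.19.7, featureCounts 1.5.0-p3 and the build mm10 (GRCm38). The aligner, the annotation and the way FPKM was scaled: not given in the sources used here. FPKM times gene length was a whole multiple of 1 step per library (100% of values above 0, tolerance 0.05 reads), which gave whole reads. The library size implied by that step was 1.26, 1.28, 0.962 and 0.544 times the assigned reads in WT 1, WT 2, Piezo1KO 1 and Piezo1KO 2. Numbers of reads show the counting error of a single value and do not measure the spread between libraries. Group differences came from limma 3.58.1 (R 4.3.3, intensity trend, no block) fitted to log2(FPKM + 1) for the 11085 genes whose mean FPKM reached 1. P-values were two-sided and Benjamini-Hochberg adjusted over all 11085. The fit had 2 residual and 2.59 prior degrees of freedom. It was also run on simulated data, where the libraries of a group shared the same mean for each gene. That run does not show how the fit behaves with Piezo1KO libraries as unlike each other as these. Descriptions number the WT libraries 2 and 3.

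The members, lists and tests were chosen with earlier results of these data known. Named are all members, Piezo1, per list up to 4 genes with the smallest unadjusted p under 0.05 and the 2 most abundant, and the 5 genes nearest to Itgb2 and to Itgb1. Alternatives were other pseudocounts, filters, scalings and variance models, voom with TMM on recovered reads, a loess fit on gene length removed per library, the replicate number as a block, and each library left out. The Itgb2 to Itgb1 ratio was tested by exact permutation.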

Additional observations from a re-analysis of the deposited data

How the results depend on the processing

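Of all genes tested, 122 passed as reported, against 1 without a filter, 68 at a mean FPKM of at least 5, 192 after quantile normalisation, 1707 scaled to all assigned reads and 49 with the length trend removed. Leaving out 1 library gave 0 to 5859 (0 without WT 1 or WT 2, with 723 and 616 at an unadjusted p under 0.05). Of the 10 chains, 0 passed as reported and 1 (Itgam) without intensity trend, after quantile normalisation and in voom, 4 scaled to all assigned reads, and 0 to 5 leaving out 1 library. Of the other chains, adaptors and ligands together, 0 passed as reported (14 at an unadjusted p under 0.05), 7 scaled to all assigned reads, 1 in voom and 0 to 24 leaving out 1 library. Without a Piezo1KO library the spread comes from the WT pair alone, and without a WT library it comes from the Piezo1KO pair alone. The cause of the other changes was not tested. With the replicate block 264 genes passed, 0 chains and 3 of the other lists (Fermt3, Spp1 and Thbs1). Libraries with the same number in their titles did not deviate together (r = -0.033 across genes). With 2 libraries a group this cannot show whether any of them share a batch.

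The Itgb2 to Itgb1 difference of 1.55 was 1.31 with 1 added to FPKM, 1.55 from reads, and 0.85 to 2.24 leaving out 1 library.

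Signs turned as follows. Scaled to all assigned reads: Itgb1 -0.75, Itgb5 -0.64, Cd9 -0.26, Cd47 -0.20, Cd151 -0.32, Cd81 -0.66, Akt1s1 -0.73, Nmd3 -0.60, Mak16 -0.65, Osbpl8 -0.57 and Atf2 -0.65. Scaled to reads outside mitochondrial genes: Itgb1 -0.17, Itgb5 -0.14, Cd81 -0.081, Akt1s1 -0.17, Nmd3 -0.15, Mak16 -0.16, Osbpl8 -0.15 and Atf2 -0.15. After quantile normalisation: Itgb1 -0.54, Cd81 -0.38 and Akt1s1 -0.26. With the length trend removed: Itgb3 0.072, Flna 0.24, Akt1s1 -0.012 and Mak16 -0.20. Leaving out 1 library, Itgb5 ran from -0.28 (without WT 2) to 0.39 (without WT 1) and Flna from -0.34 (without Piezo1KO 1) to 0.070 (without Piezo1KO 2).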
